A study of Mus musculus with 16 samples.

Results

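Calcium handling in skeletal muscle was examined through 10 genes of the sarcoplasmic reticulum and the triad, Ryr1, Cacna1s, Cacng1, Stac3, Atp2a1, Atp2a2, Casq2, Srl, Jph2 and Trdn, which were chosen by their symbols among the 31053 genes of the expression table. They were measured by mRNA sequencing in C2C12, a mouse myoblast line whose cells fuse into myotubes in culture. The 16 samples formed 4 groups of 4 biological replicates, myoblasts and myotubes of the WT line and of a Fam134b KO line, here called KO. All groups were kept in DMEM with 10% FBS, in which differentiation was spontaneous, and the labels give no day of harvest. Fam134b encodes an ER-phagy receptor, a protein that delivers pieces of the endoplasmic reticulum to the lysosome. The KO line was made with a lentiviral vector that carries Cas9 and a pair of guides, the WT cells are the line without this deletion, and the methods do not say whether the KO line comes from a single clone, so that the deletion and other differences between the lines cannot be told apart.

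In a muscle fibre the sarcoplasmic reticulum, a specialised form of the endoplasmic reticulum, stores the calcium that triggers contraction. At the triad its terminal cisternae face a transverse tubule, where the voltage sensor in the tubule membrane opens the ryanodine receptor in the reticulum membrane and calcium leaves the store. Calsequestrin and sarcalumenin hold calcium inside the store, junctophilins tether the membranes of the triad, triadin anchors calsequestrin to the release channel, and SERCA pumps return the calcium.

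Each of the 10 transcripts had its highest mean in WT myotubes. All 10 rose with differentiation in WT cells and 9 in KO cells, and most of them were lower in KO cells at both stages. In WT cells, 10 of 10 passed the test and were higher in myotubes than in myoblasts, in a comparison in which 13.8% of all tested genes were called higher. In KO cells 9 of 10 rose, against 17.3% of all tested genes, and Jph2 was the exception. In myoblasts 9 of 10 were called lower in KO than in WT cells, against 8.5% of all tested genes, with Atp2a2 not called. In myotubes 9 of 10 were again called lower in KO cells, against 13.7% of all tested genes, with Trdn not called. A call is a Benjamini-Hochberg adjusted p under 0.05 from limma, fitted to log2 values of the 10767 genes that passed a filter on low values, and all 10 genes passed it. The WT myoblasts, and likewise each of the other groups, serve in more than 1 of these comparisons, so the comparisons are not independent of each other.

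The median log2 fold change of the 10 genes was 3.24 from WT myoblasts to WT myotubes, with a range of 0.85 to 5.28, while the median over all tested genes was -0.01. From KO myoblasts to KO myotubes it was 4.20, with a range of 0.19 to 7.89, against -0.02 over all tested genes. It was 4.05 when Cacna1s, which had 0 reads in every KO myoblast sample, was set at its lower bound. Between KO and WT it was -2.41 in myoblasts (-2.95 without Cacna1s, for which no fold is given) and -1.53 in myotubes, where the medians over all tested genes were -0.01 and -0.07. Ryr1, Stac3, Atp2a1 and Casq2 also had at most 4 reads per KO myoblast library. Their folds against this group depend on the pseudocount, the 1 added to each count before the log2 step. Over the alternative settings Casq2 rose by 4.91 to 6.36 in KO cells, and Ryr1 differed by -4.31 to -1.73 between the myoblasts. The medians that involve KO myoblasts therefore do not settle whether the rise was larger in KO cells.

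Promoter sequence was at hand for 5 of the 10 genes, from RefSeq on the GRCm38.p6 build, as windows from 250 bases before to 50 bases after the start of the gene. Motif positions are counted from this RefSeq start. For Cacna1s, Ryr1 and Atp2a1 it is not the same base as the start in the gene coordinates given further on. A window is shown for each of these 5 genes, whatever the size of its change. Among them the fitted change with differentiation was smallest for Jph2 in both lines. It was largest for Cacna1s in WT cells and for Atp2a1 in KO cells. Capitals mark each E-box, the motif CANNTG that myogenic regulators of the MyoD family are known to bind, and each sequence is written on the strand of its gene. The windows are chr1:136052561-136052860 on the plus strand for Cacna1s, chr3:102086165-102086464 on the plus strand for Casq2, chr7:29125102-29125401 on the minus strand for Ryr1, chr7:126463024-126463323 on the minus strand for Atp2a1 and, for the first of 2 starts, chr2:163397944-163398243 on the minus strand for Jph2.
Cacna1s: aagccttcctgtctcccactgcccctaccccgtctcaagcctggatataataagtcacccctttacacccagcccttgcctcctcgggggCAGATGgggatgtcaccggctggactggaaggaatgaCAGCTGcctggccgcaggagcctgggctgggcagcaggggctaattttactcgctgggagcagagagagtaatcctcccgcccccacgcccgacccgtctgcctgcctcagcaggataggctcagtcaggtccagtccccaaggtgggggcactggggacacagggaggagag
Casq2: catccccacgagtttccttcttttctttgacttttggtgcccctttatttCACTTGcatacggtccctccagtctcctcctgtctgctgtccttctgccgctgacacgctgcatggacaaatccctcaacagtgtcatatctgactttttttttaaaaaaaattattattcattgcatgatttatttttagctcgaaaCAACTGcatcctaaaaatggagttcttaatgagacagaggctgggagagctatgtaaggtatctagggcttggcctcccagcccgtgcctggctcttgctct
Ryr1: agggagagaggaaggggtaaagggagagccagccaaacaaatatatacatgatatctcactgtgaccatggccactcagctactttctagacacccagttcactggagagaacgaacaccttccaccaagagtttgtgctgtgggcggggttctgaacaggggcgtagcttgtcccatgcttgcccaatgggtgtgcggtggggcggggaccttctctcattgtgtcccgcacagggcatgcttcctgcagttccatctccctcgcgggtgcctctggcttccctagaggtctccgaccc
Atp2a1: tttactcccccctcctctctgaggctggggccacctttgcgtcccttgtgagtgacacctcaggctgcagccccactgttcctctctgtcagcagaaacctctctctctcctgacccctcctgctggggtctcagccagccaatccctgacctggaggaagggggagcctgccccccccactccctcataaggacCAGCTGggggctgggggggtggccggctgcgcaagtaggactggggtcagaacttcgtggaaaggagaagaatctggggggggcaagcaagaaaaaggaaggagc
Jph2: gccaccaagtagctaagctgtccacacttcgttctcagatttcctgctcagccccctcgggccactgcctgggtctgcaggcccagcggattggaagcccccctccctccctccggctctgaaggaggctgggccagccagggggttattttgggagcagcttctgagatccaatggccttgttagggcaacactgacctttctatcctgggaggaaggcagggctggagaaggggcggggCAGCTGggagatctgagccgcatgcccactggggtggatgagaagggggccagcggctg
A script searched both strands for 5 motifs. CANNTG was present in 72.3% of 32851 windows of this length, so its presence sets few promoters apart. Cacna1s held 2 matches, starting 160 and 123 bases before the gene start, and Casq2 held 2, starting 200 and 52 bases before it. The narrower form CAGCTG, which overlaps CANNTG by definition, was present in 16.3% of windows and occurred once in Cacna1s, once in Atp2a1 and once in Jph2. A match to the MEF2 motif, found in 3.19% of windows, began 69 bases before the start of Casq2. The CArG box, in 1.63% of windows, and TATAAA, in 13.6%, had 0 matches in these windows, and the Ryr1 window matched none of the 5 motifs. A match or its lack describes the letters of a window and not the binding of a factor.

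The libraries held 2686680 to 3287461 reads on genes in WT samples and KO myoblasts and 1484750 to 2947336 in KO myotubes, where replicates 2 and 4 were the shallowest with 1790524 and 1484750. The level of 3 reads, used as the floor of detection, equalled 2.49 to 5.99 normalized counts, and such floors and all counting intervals cover counting error only. Fam134b itself was at 146 to 287 normalized counts in the 8 WT samples and at 23.4 to 56.9 in the 8 KO samples, with no overlap between the lines. Markers of the stages went with the labels in part: the 9 myotube markers summed to 20650 to 29590 normalized counts in WT myotubes and 9751 to 13330 in KO myotubes, but to 1057 to 1646 in WT myoblasts and 11.7 to 18.3 in KO myoblasts. WT myoblasts therefore already held myotube transcripts, and the KO myoblasts held almost none, with Myog, a regulator of differentiation, at 0 in every sample. The 4 myoblast markers went against the stage labels: they summed to 768 to 1128 in WT myoblasts and 1663 to 2003 in WT myotubes, and to 221 to 292 in KO myoblasts and 572 to 803 in KO myotubes. Most of these sums came from Des, which encodes the intermediate filament protein desmin, with means of 516 and 1010 in WT and 132 and 304 in KO myoblasts and myotubes, and from Myod1, which is described further on. Pax7 averaged 1.17 in WT myoblasts and was at 0 in every KO sample, while Myf5 averaged 71.1 in WT myoblasts, 71.6 in WT myotubes, 114 in KO myoblasts and 64.9 in KO myotubes. The summed fibroblast markers, of which Col1a1 and Col1a2 made up nearly all, ran from 3200 to 5958 in WT and 5388 to 16960 in KO myoblasts, and from 11470 to 20140 in WT and 15210 to 31750 in KO myotubes. Adipocyte markers summed to at most 0.964, cardiomyocyte markers to at most 30.7 with Nppa and Myl7 at 0 in every sample, osteoblast markers to 26.3 to 150 with Ibsp and Alpl at 0, and smooth muscle markers, several of which myoblasts also express, to 5852 to 14210.

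The myotube markers moved with the calcium handling genes. All 9 were called higher in myotubes in both lines, 9 were called lower in KO than in WT myoblasts and 6 in KO than in WT myotubes, and their part in the results below was not tested. In these bulk samples, fewer cells of a type and less RNA per cell cannot be told apart.

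**Figure D1:**
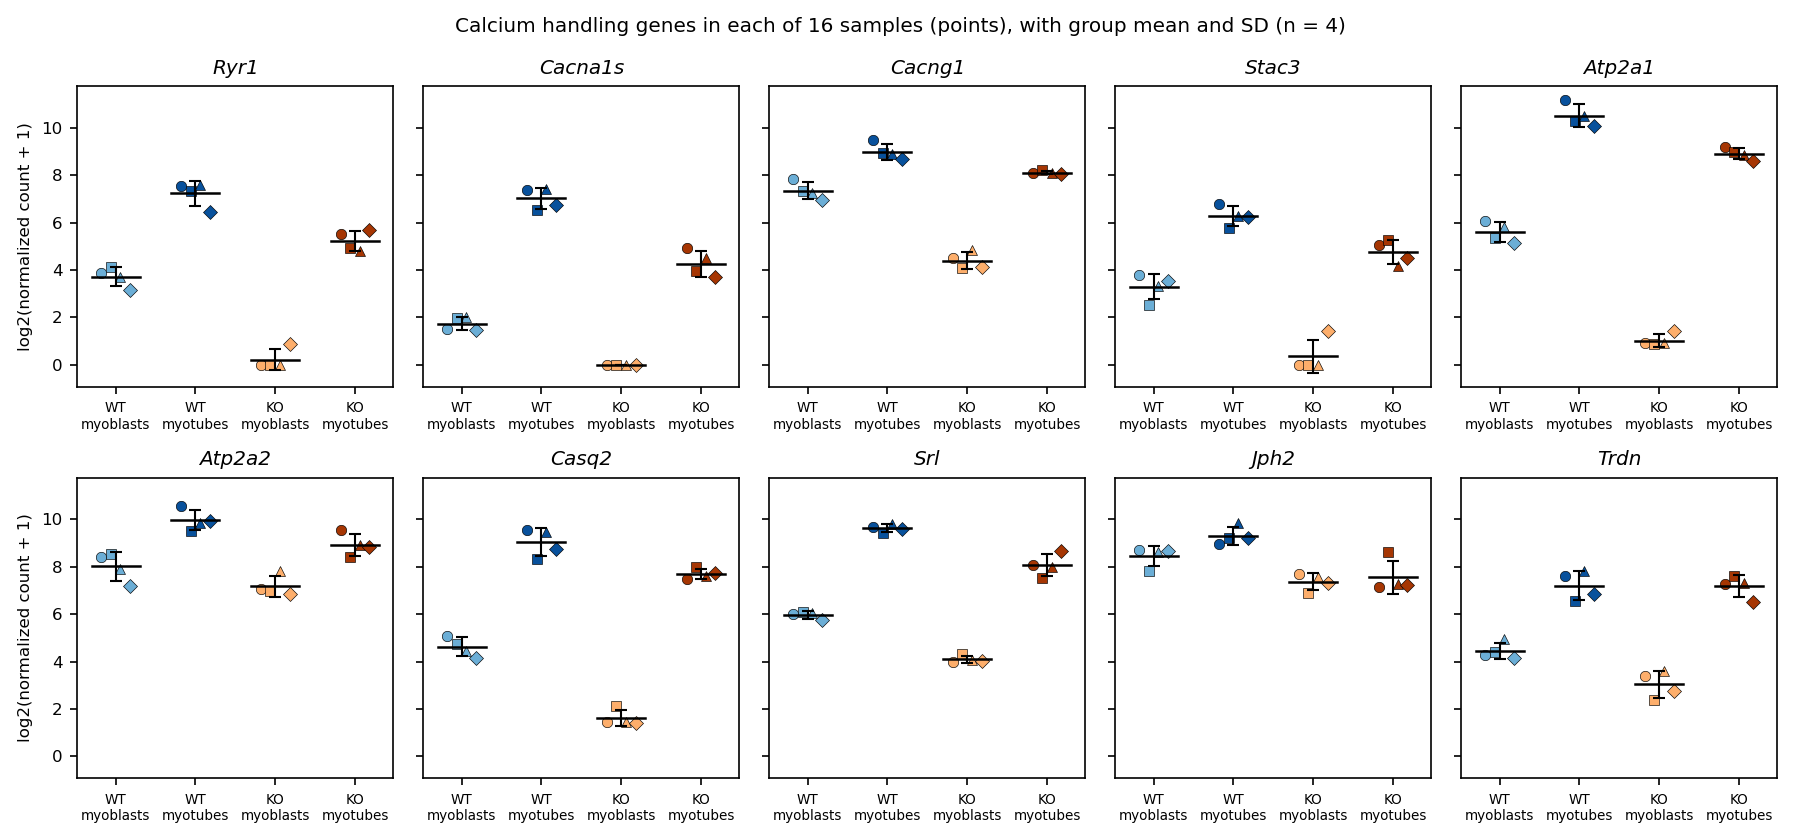
Log2 of the normalized count plus 1 (vertical axis) of the 10 calcium handling genes in each of the 16 samples; points are samples, with a marker shape for each replicate number, and bars are the group mean and SD (n = 4). WT myotubes have the highest mean in every panel, and KO myoblasts the lowest, near 0 for Ryr1, Cacna1s and Stac3.

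Ryr1 (ENSMUSG00000030592, chr7:29003344-29125179, minus strand, GRCm38) encodes the calcium release channel of the skeletal sarcoplasmic reticulum. Its normalized counts were 13.8, 16.4, 12.0 and 8.02 in the WT myoblast replicates and 186, 161, 193 and 86.2 in the WT myotube replicates. They were 0, 0, 0 and 0.834 in KO myoblasts, a single read in 4 libraries, and 44.5, 29.2, 27.0 and 50.0 in KO myotubes. The 4 groups did not overlap, in the order WT myotubes, KO myotubes, WT myoblasts and KO myoblasts. Ryr1 rose by 3.51 on the log2 scale in WT cells (standard error 0.35, limma with Benjamini-Hochberg adjustment, adjusted p = 2.76e-07). In KO cells it rose from 1 read to 121, a ratio of 171 with a 95% counting interval of 30.1 to 6799. Ratios given with a counting interval compare the summed reads of the groups, scaled for depth. KO myotubes had 24.1% of the WT mean, and the log2 fold change was -2.01 (standard error 0.35, limma adjusted p = 3.11e-04), and in myoblasts the ratio of WT to KO was 58.7 (10.1 to 2362).

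The voltage sensor is the L-type calcium channel of the transverse tubule, of which Cacna1s encodes the pore and sensor subunit and Cacng1 the gamma subunit, while Stac3 encodes an adaptor needed for its coupling to the release channel. Cacna1s (ENSMUSG00000026407, chr1:136052750-136119822, plus strand) was at the limit of detection in myoblasts, with 2, 3, 3 and 2 reads in the WT replicates and 0 reads in each KO replicate. In myotubes its normalized counts were 167, 92.7, 169 and 105 in WT and 29.0, 14.6, 21.6 and 12.0 in KO replicates. Every WT myotube sample thus lay above every KO myotube sample, with the highest KO value at 29.0 and the lowest WT value at 92.7. The KO mean was 14.5% of the WT mean in myotubes, and the log2 fold change was -2.75 (standard error 0.37, limma adjusted p = 2.08e-05), the lowest percentage among the 10 genes at this stage. From myoblasts to myotubes the ratio was 57.0 in WT cells (95% counting interval 30.8 to 119). In KO cells the myotube mean was 7.56-fold the floor of 3 reads in KO myoblasts, a lower bound for the rise. In myoblasts Cacna1s was called lower in KO cells (limma adjusted p = 0.00204), but no fold is given because both groups were at or under the floor, and the call was lost at a pseudocount of 5 (adjusted p = 0.17) and with quantile normalization (adjusted p = 0.414).

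Cacng1 (ENSMUSG00000020722, chr11:107703218-107716522, minus strand) was already well detected in WT myoblasts, at 226, 160, 153 and 124 normalized counts, and reached 711, 485, 478 and 410 in WT myotubes. In KO myoblasts it was at 21.9, 15.8, 27.8 and 16.7, and in KO myotubes at 269, 299, 270 and 268. The groups did not overlap, and KO myotubes lay just above the WT myoblasts. It rose by 1.65 in WT cells (standard error 0.21, adjusted p = 8.51e-06) and by 3.72 in KO cells (standard error 0.21, adjusted p = 1.29e-11), both from limma on the log2 scale. The KO mean was 12.4% of WT in myoblasts and 53.1% in myotubes, log2 fold changes of -2.95 and -0.88 (limma adjusted p = 7.88e-10 and 0.00452).

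Stac3 (ENSMUSG00000040287, chr10:127501686-127508823, plus strand) ranged from 53.1 to 110 normalized counts in WT myotubes, 17.1 to 37.9 in KO myotubes and 4.82 to 12.9 in WT myoblasts. In KO myoblasts it had 2 reads in all, both in replicate 4. It rose by 2.97 on the log2 scale in WT cells (standard error 0.41, limma adjusted p = 2.20e-05), and in KO cells the ratio of depth-scaled reads between the stages was 62.8 (95% counting interval 16.9 to 527). The KO mean was 34.7% of WT in myotubes, and the log2 fold change was -1.51 (standard error 0.41, limma adjusted p = 0.0106). In myoblasts the ratio of WT to KO was 22.2 (5.75 to 189).

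Both SERCA genes rose with differentiation, but to very different extents. Atp2a1 (ENSMUSG00000030730, chr7:126445858-126463108, minus strand) encodes SERCA1, the pump of fast skeletal fibres, and Atp2a2 (ENSMUSG00000029467, chr5:122453513-122502225, minus strand) encodes SERCA2, which has an isoform in slow and cardiac muscle and another that is found in most cells. Atp2a1 was at 66.4, 39.5, 56.0 and 34.8 normalized counts in WT myoblasts and at 2337, 1234, 1468 and 1085 in WT myotubes. In KO myoblasts it had 1, 1, 1 and 2 reads, and in KO myotubes it reached 591, 508, 462 and 390 normalized counts. The groups did not overlap. The change in WT cells was 4.91 on the log2 scale (standard error 0.25, limma adjusted p = 1.20e-11). In KO cells the ratio of depth-scaled reads was 470 (95% counting interval 201 to 1451), and Atp2a1 was the gene with the largest fitted change of the 10 in that line. The KO mean was 31.9% of WT in myotubes (log2 fold change -1.60, standard error 0.25, limma adjusted p = 8.62e-05), and in myoblasts the ratio of WT to KO was 46.1 (19.4 to 143).

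Atp2a2 was at 341, 373, 240 and 143 normalized counts in WT myoblasts and at 132, 125, 224 and 115 in KO myoblasts. It was at 1500, 730, 922 and 989 in WT myotubes and at 748, 339, 482 and 454 in KO myotubes. The lines overlapped at both stages, unlike those of Atp2a1, since replicate 3 of the KO myoblasts and replicate 1 of the KO myotubes stood within the WT range. It rose by 1.95 in WT cells (standard error 0.29, adjusted p = 5.57e-05) and by 1.75 in KO cells (standard error 0.29, adjusted p = 9.27e-05), both by limma. Against WT it was lower in KO myotubes, with a log2 fold change of -1.04 (95% confidence interval -1.65 to -0.44, limma adjusted p = 0.013), and this call was lost when the shallow replicates 2 and 4 of that group were left out (log2 fold change -0.73, adjusted p = 0.132). In myoblasts the log2 fold change was -0.84 (95% confidence interval -1.44 to -0.23), which missed the threshold at a limma adjusted p of 0.0548. It passed without WT myoblast replicate 4 (adjusted p = 0.00857) or without KO myoblast replicate 3 (adjusted p = 0.021). Other settings that passed were sample weights (limma adjusted p = 0.00694), a replicate block, the compared samples alone and leaving out the shallow KO myotube replicates. So did leaving out WT myotube replicate 1 or KO myotube replicate 1 or 2.

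The log2 ratio of Atp2a1 to Atp2a2 within a sample, taken as the difference of their log2 values at a pseudocount of 1, averaged -2.41 ± 0.55 (SD, n = 4) in WT myoblasts, 0.55 ± 0.28 in WT myotubes, -6.15 ± 0.60 in KO myoblasts and -0.01 ± 0.41 in KO myotubes. The ratio was higher in myotubes than in myoblasts by 2.96 in WT and by 6.14 in KO cells, and in myoblasts it was lower in KO than in WT cells, with a difference of -3.74. In each of these 3 comparisons no sample of a group overlapped the other, and the two-sided exact permutation test gave p = 0.0286, the smallest that 4 samples against 4 allow. In myotubes the difference between the lines was -0.56 (exact permutation p = 0.0571). After adjustment over the 12 tests of 3 gene pairs the smallest exact permutation p was 0.0686, so none passed 0.05. Since Atp2a1 rested on 1 or 2 reads per KO myoblast sample, the ratio in this group and the size of the differences that involve it depend on the pseudocount and the scaling of the sample, and at a pseudocount of 5 they were 4.61 between the stages and -2.30 between the lines.

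**Figure D2:**
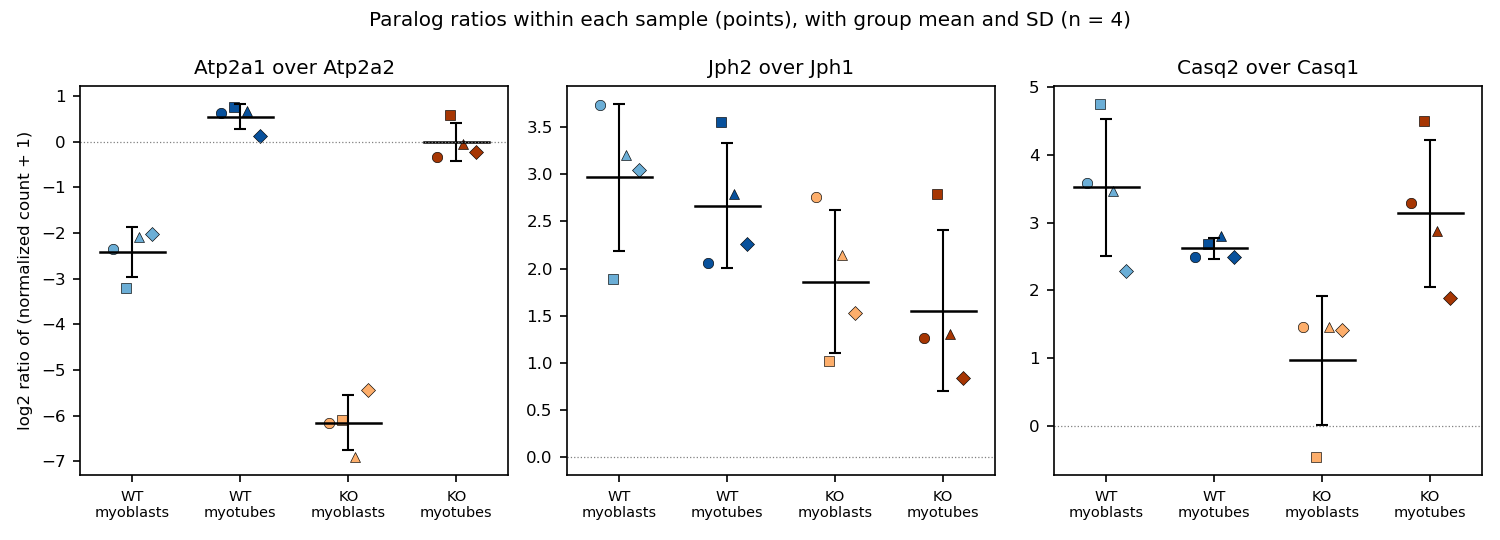
Log2 ratio within each sample (vertical axis) of Atp2a1 to Atp2a2, Jph2 to Jph1 and Casq2 to Casq1, with the group mean and SD (n = 4); points are samples. The Atp2a1 ratio lies between -6.91 and -5.44 in the KO myoblasts and between -0.34 and 0.76 in the 8 myotube samples.

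Among the store proteins, Casq2 (ENSMUSG00000027861, chr3:102086415-102146514, plus strand) encodes calsequestrin 2, the isoform of cardiac and slow or immature skeletal muscle, and Srl (ENSMUSG00000022519, chr16:4480216-4541816, minus strand) encodes sarcalumenin. Casq2 was at 33.2, 26.0, 21.0 and 16.9 normalized counts in WT myoblasts and at 760, 322, 713 and 429 in WT myotubes. In KO myoblasts it had 2, 4, 2 and 2 reads, and in KO myotubes 179, 254, 197 and 210 normalized counts. The groups did not overlap, and the KO myotubes were the less variable of the myotube groups. It rose by 4.41 on the log2 scale in WT cells (standard error 0.28, limma adjusted p = 3.39e-10), and the ratio between the stages was 96.4 in KO cells (95% counting interval 52.1 to 202). The KO mean was 37.8% of WT in myotubes (log2 fold change -1.32, standard error 0.28, limma adjusted p = 0.00162), and the ratio of WT to KO in myoblasts was 11.4 (5.96 to 24.5).

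The log2 ratio of Casq2 to Casq1, the gene of the fast fibre calsequestrin, averaged 3.52 ± 1.01 (SD, n = 4) in WT myoblasts, 2.62 ± 0.15 in WT myotubes, 0.96 ± 0.96 in KO myoblasts and 3.14 ± 1.09 in KO myotubes. It differed by 2.17 between the stages in KO cells and by -2.56 between the lines in myoblasts (exact permutation p = 0.0286 for each, 0.0686 after adjustment over the 12 tests). Casq1 had 6 reads in all in each of the myoblast groups, so these ratios lean on the pseudocount, and the difference in WT cells moved from -0.91 to 0.37 at a pseudocount of 5.

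Srl was at 677 to 898 normalized counts in WT and 184 to 408 in KO myotubes, and at 52.6 to 66.5 in WT and 14.9 to 19.1 in KO myoblasts, with no overlap between groups. Its changes with differentiation were close in size, 3.66 in WT and 3.97 in KO cells on the log2 scale (standard error 0.20 each, limma adjusted p = 4.72e-11 and 1.66e-12). Their difference was 0.32 with a 95% confidence interval of -0.28 to 0.91 (limma adjusted p = 0.612). Against WT, Srl was lower in KO cells by -1.87 in myoblasts and -1.56 in myotubes (limma adjusted p = 4.74e-07 and 1.32e-05).

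Of the junction genes, Jph2 and Trdn were each not called in 1 of the 4 comparisons of groups. Jph2 (ENSMUSG00000017817, chr2:163336242-163397993, minus strand) encodes junctophilin 2, which tethers the reticulum to the plasma membrane, and it was at 419, 228, 395 and 405 normalized counts in WT myoblasts and at 498, 592, 928 and 587 in WT myotubes. It was at 207, 119, 191 and 156 in KO myoblasts and at 141, 390, 153 and 148 in KO myotubes. Its KO groups overlapped, with 3 of the 4 myotube replicates inside the myoblast range and replicate 2 far above it. Jph2 rose by 0.85 on the log2 scale in WT cells (95% confidence interval 0.25 to 1.44, limma adjusted p = 0.0372), and this call was lost without WT myoblast replicate 2, 3 or 4 or without WT myotube replicate 3 or 4, with an adjusted p of up to 0.134 and a log2 fold change of 0.64 or more. In KO cells the change was 0.19 (95% confidence interval -0.40 to 0.79, limma adjusted p = 0.643), and it was -0.16 without KO myotube replicate 2. The difference between those changes was -0.66 (95% confidence interval -1.50 to 0.19, limma adjusted p = 0.419), so a different response of the lines was not shown. Jph2 alone of the 10 genes had a lower mean in KO myotubes than in WT myoblasts, 208 ± 121 against 362 ± 89.9 (SD, n = 4), with overlap between those samples. The KO mean was 46.5% of WT in myoblasts and 31.9% in myotubes, log2 fold changes of -1.09 and -1.75 (limma adjusted p = 0.0105 and 1.58e-04).

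The log2 ratio of Jph2 to Jph1, which encodes another junctophilin of skeletal muscle, was lower in KO than in WT cells by about the same amount at both stages, with differences of -1.11 in myoblasts and -1.11 in myotubes (exact permutation p = 0.0857 for each, adjusted 0.129). Between the stages it differed by -0.30 in WT and -0.31 in KO cells (exact permutation p = 0.543 and 0.629). None of these differences had an exact permutation p under 0.05.

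Trdn (ENSMUSG00000019787, chr10:33080554-33476709, plus strand) encodes triadin. It was at 18.5, 20.3, 30.0 and 16.9 normalized counts in WT myoblasts and at 9.62, 4.15, 11.3 and 5.84 in KO myoblasts. In myotubes it was at 195, 91.8, 225 and 115 in WT and at 152, 196, 159 and 89.9 in KO replicates, and these samples overlapped almost fully. Trdn rose by 2.75 in WT and by 4.14 in KO cells (standard error 0.33 each, limma adjusted p = 3.56e-06 and 4.69e-09). It was lower in KO than in WT myoblasts by -1.41 (limma adjusted p = 0.00437). In myotubes the KO mean was 95.2% of WT and the log2 fold change was -0.03 with a 95% confidence interval of -0.72 to 0.66 (limma adjusted p = 0.961), an interval that leaves room for a difference of up to 0.72 in size. The intervals of the other 9 genes at this stage lay wholly below 0.

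**Figure D3:**
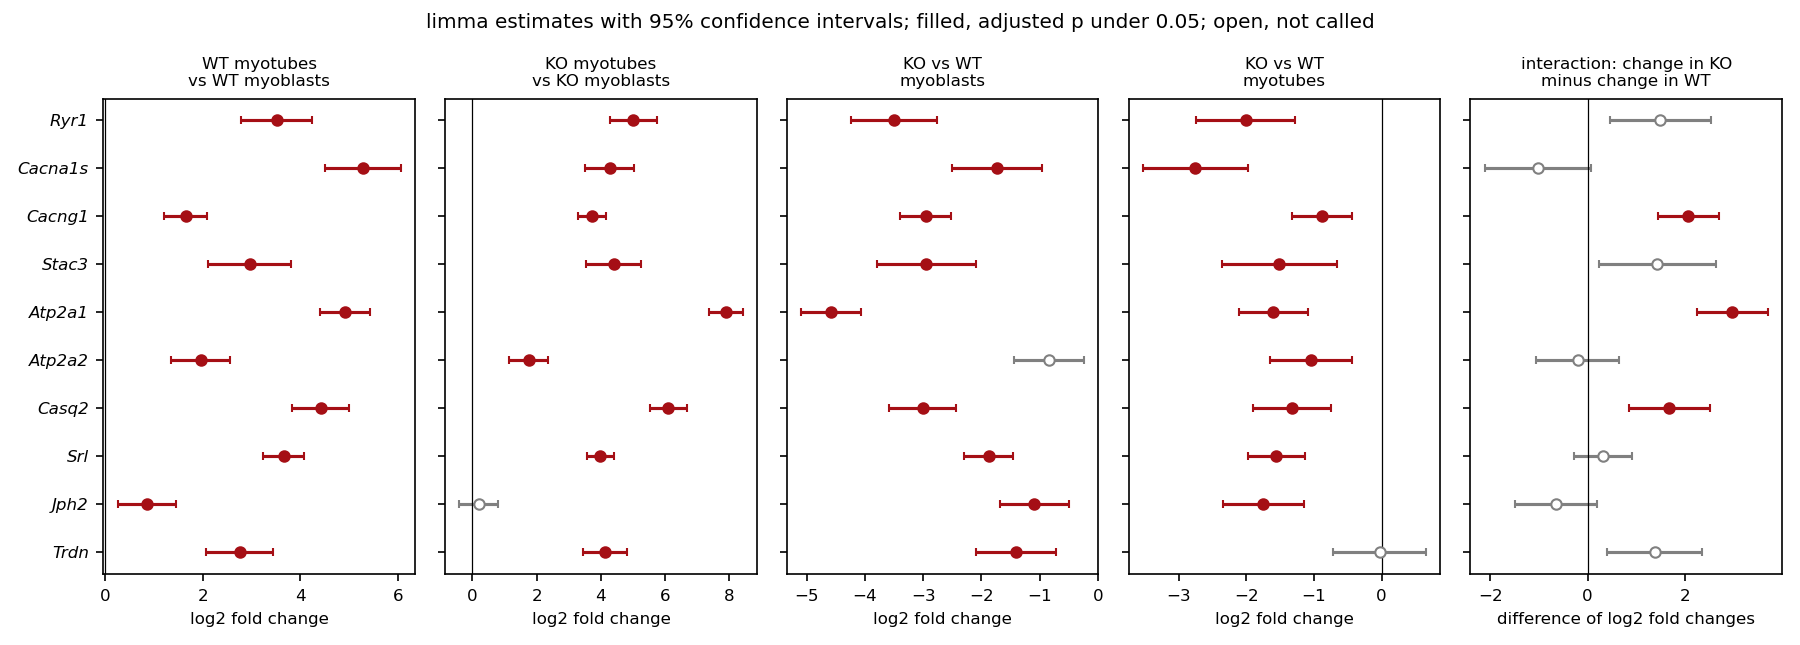
Log2 fold changes of the 10 genes (horizontal axis) from limma with 95% confidence intervals, in the 4 comparisons of groups and for the interaction, which is the change in KO cells minus that in WT cells; filled points passed an adjusted p of 0.05. The open points are Jph2 in KO differentiation (0.19), Atp2a2 between myoblasts (-0.84), Trdn between myotubes (-0.03) and 7 of the 10 genes in the interaction.

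In 9 of the 10 genes the group means fell in one order, from WT myotubes over KO myotubes and WT myoblasts to KO myoblasts. Neighbours in this order did not overlap for Ryr1, Cacna1s, Cacng1, Stac3, Atp2a1, Casq2 and Srl, overlapped at each step for Atp2a2, and overlapped between the myotube groups for Trdn. All 10 genes had non-overlapping samples between WT myoblasts and WT myotubes, where 16.1% of all tested genes were non-overlapping and higher in myotubes. Between the stages of the KO line, 9 of 10 were non-overlapping and higher in myotubes (14.3% of all tested genes). Between the lines, 9 of 10 were non-overlapping and lower in KO myoblasts (14% of all tested genes) and 8 of 10 in KO myotubes (10.8%).

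Whether the change with differentiation differed between the lines was tested by the interaction of genotype and differentiation, in which 1.97% of all tested genes were called higher, meaning a larger change in KO cells. Of the 10 genes, 3 were called, all higher: Atp2a1 with a difference of changes of 2.98 (standard error 0.35, limma adjusted p = 1.15e-05), Cacng1 with 2.07 (standard error 0.30, adjusted p = 1.94e-04) and Casq2 with 1.69 (standard error 0.40, adjusted p = 0.0186). The value for Atp2a1, which rested on 1 or 2 reads per KO myoblast sample, was 1.53 at a pseudocount of 5 (adjusted p = 0.00706) and ranged up to 3.38 over the alternatives, all of which kept the call. These 3 genes started from a much lower level in KO than in WT myoblasts and remained below WT in myotubes. All 9 myotube markers were also called higher in the interaction, with a median of 4.16, against a median of 1.41 for the 10 genes. Because KO myoblasts held almost no reads of most markers, the size of their median depends on the pseudocount. The same holds for the median of the 10 genes, since Ryr1, Cacna1s, Stac3, Atp2a1 and Casq2 had at most 4 reads per KO myoblast library. The Casq2 call was lost at a pseudocount of 5 (0.71, adjusted p = 0.293), with quantile normalization (1.12, adjusted p = 0.125), without WT myoblast replicate 1 (adjusted p = 0.0506), without WT myotube replicate 4 (adjusted p = 0.0539) and without the shallow KO myotube replicates 2 and 4 (adjusted p = 0.0558). For the other 7 genes the adjusted p was 0.109 or higher, but for the genes with almost no reads in myoblasts the value depends on the pseudocount. The difference for Ryr1 was 1.50 at a pseudocount of 1 (adjusted p = 0.109), 2.29 at 0.5 (adjusted p = 0.028) and -0.16 at 5 (adjusted p = 0.873). The difference for Cacna1s was -1.02 (adjusted p = 0.324) and became -1.96 at a pseudocount of 5 (adjusted p = 0.00323), where the call was for a smaller change in KO cells. Cacna1s was also called in this direction with quantile normalization (-2.17, limma adjusted p = 0.0142). With sample weights, Ryr1 (1.69, limma adjusted p = 0.0311) and Trdn (1.37, limma adjusted p = 0.0396) were called higher.

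Of the regulators of the muscle programme, Myod1 and Myog had their highest means in WT myotubes and their lowest in KO myoblasts, unlike Myf5, whose values are given above. Myod1, the myogenic factor that commits cells to the muscle fate, averaged 282 ± 63.7 normalized counts (SD, n = 4) in WT myoblasts, 763 ± 114 in WT myotubes, 9.62 ± 4.70 in KO myoblasts and 292 ± 101 in KO myotubes. Myog, which acts later, averaged 114 ± 24.3, 1069 ± 193, 0 and 766 ± 195 in these groups, and it was not called between the myotubes (limma adjusted p = 0.0892). Both had called interactions, of 3.39 for Myod1 and 6.32 for Myog (limma adjusted p = 4.94e-06 and 1.29e-11), and the latter depends on the pseudocount because Myog was at 0 in KO myoblasts.

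To place the 10 genes among their partners, 51 other genes of calcium handling were listed by role, of which 37 passed the filter. In WT differentiation 24 of the 37 were called higher and 0 lower, with a median log2 fold change of 0.91, against 13.8% of all tested genes called higher. In KO differentiation 21 were called higher and 0 lower, against 17.3% of all tested genes called higher. The median there was 0.98 (0.95 with genes at 0 in a group set at their bound or left out). Among those called higher in WT cells were Casq1, at 5.32, Hrc, which encodes a histidine-rich calcium-binding protein of the store, at 4.94, and Cav3, the caveolin of muscle, at 4.84. Between the lines the list was more mixed: in KO myoblasts 9 were called lower and 2 higher than in WT, with a median of -0.14 (-0.10 with such genes at their bound or left out), and in KO myotubes 14 were called lower and 4 higher, with a median of -0.43. Of all tested genes, 7.26% were called higher and 8.5% lower in KO myoblasts, and 9.74% higher and 13.7% lower in KO myotubes. The counts of the list include Cacng6, which passed the filter only through the WT myotubes. They also include Mtm1, which passed it only through the KO myotubes. The calls of these genes that involve those groups follow in part from how the genes were selected.

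The partners of the release channel did not move as a group. Of 9 tested, 2 rose in WT differentiation, where 13.8% of all tested genes were called higher. These were Jsrp1, which encodes a junctional protein known as JP-45, by 2.39 and Ryr3, another ryanodine receptor, by 1.44 (limma adjusted p = 5.27e-07 and 0.00315). Both were lower in KO cells at both stages: Jsrp1 averaged 2.99 against 95.2 normalized counts in myoblasts and 129 against 512 in myotubes, and Ryr3 6.79 against 23.8 and 20.6 against 66.1. Of the 3 inositol trisphosphate receptors, release channels found in most cells, 2 were higher in KO than in WT myotubes, with Itpr1 at 76.0 normalized counts in KO and 25.6 in WT myotubes and Itpr2 at 187 and 89.2 (log2 fold changes of 1.58 and 1.06, limma adjusted p = 0.00107 and 0.00134). Itpr2 was also higher in KO myoblasts (0.83, limma adjusted p = 0.0103). Itpr3, the FK506-binding proteins Fkbp1a and Fkbp1b, Sepn1 and S100a1 were not called in the 4 comparisons of groups.

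Among the subunits of the voltage sensor, Cacnb1, which encodes the skeletal beta subunit, rose by 2.80 in WT and 3.57 in KO cells and was lower in KO cells by -1.96 in myoblasts and -1.19 in myotubes (limma adjusted p = 2.13e-04 for the last). Cacna2d1, of the alpha2-delta subunit, rose by 1.15 and 0.98 and was lower in KO myotubes by -0.79 (limma adjusted p = 0.0245). Cacng6, of another gamma subunit, was at 26.8 normalized counts in WT myotubes and 2.43 in KO myotubes, a level at about the floor of detection, and it passed the filter only through the WT myotubes. Stac2 and Cacnb3 were not called.

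For the SERCA pumps, 4 of the 5 listed partners did not pass the filter, among them the inhibitors Sln, with 0 reads in every sample, and Pln, with at most 1 read. Mrln, which encodes the SERCA inhibitor myoregulin, averaged 35.3 normalized counts in WT myoblasts, 59.3 in WT myotubes, 4.42 in KO myoblasts and 29.6 in KO myotubes. It was lower in KO cells at both stages (-2.84 and -1.01, limma adjusted p = 4.40e-06 and 0.0467). In the store, Casq1 and Hrc were lower in KO myotubes, by -1.85 and -1.61, and Calr, which encodes calreticulin, the calcium-binding chaperone of the general endoplasmic reticulum, was higher by 0.93 (limma adjusted p = 0.0308, 0.00986 and 0.0296). Calr rose in both lines, to 1427 normalized counts in WT and 2747 in KO myotubes from 754 and 764 in myoblasts.

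Of 8 tested junction partners, 8 rose in WT differentiation and 5 in KO differentiation, against 13.8% and 17.3% of all tested genes. In KO myotubes Cav3, Bin1, which shapes transverse tubules, and Ank1, which has a small isoform in the reticulum membrane, were lower than in WT by -1.85, -0.99 and -0.98 (limma adjusted p of 5.15e-04, 4.53e-04 and 0.00353). Mtm1, which encodes a lipid phosphatase needed for tubule formation, passed the filter only through the KO myotubes, where it was at 14.4 to 39.4 normalized counts, so its calls as higher in KO cells follow in part from how it was selected. It averaged 7.97 in WT myotubes, 7.83 in KO myoblasts and 1.63 in WT myoblasts, which held 0 to 3 reads per sample. Cav3 had 0 reads in each KO myoblast sample and 14 to 60 reads in KO myotubes. Its KO myotube mean was 16.9-fold the floor of 3 reads in KO myoblasts, a lower bound for the rise. Among the genes of store refilling and counter-ion flow, the potassium channels of the reticulum Tmem38a and Tmem38b were lower in KO myotubes by -1.49 and -1.11 (limma adjusted p = 8.70e-06 and 0.0158), as was Orai1, the store-operated channel, by -0.68 (limma adjusted p = 0.0467), while its sensor Stim1 was at 74.8 in WT and 72.2 in KO myotubes. The plasma membrane pumps Atp2b1 and Atp2b4 rose in both lines and were not called between them. In the interaction 3 of the 37 were called, all higher, against 1.97% of all tested genes. These were Jsrp1 (2.66), Mrln (1.84) and Ank1 (1.27), with limma adjusted p of 6.37e-05, 0.0482 and 0.0305, and with some single libraries left out the count fell to 1.

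**Figure D4:**
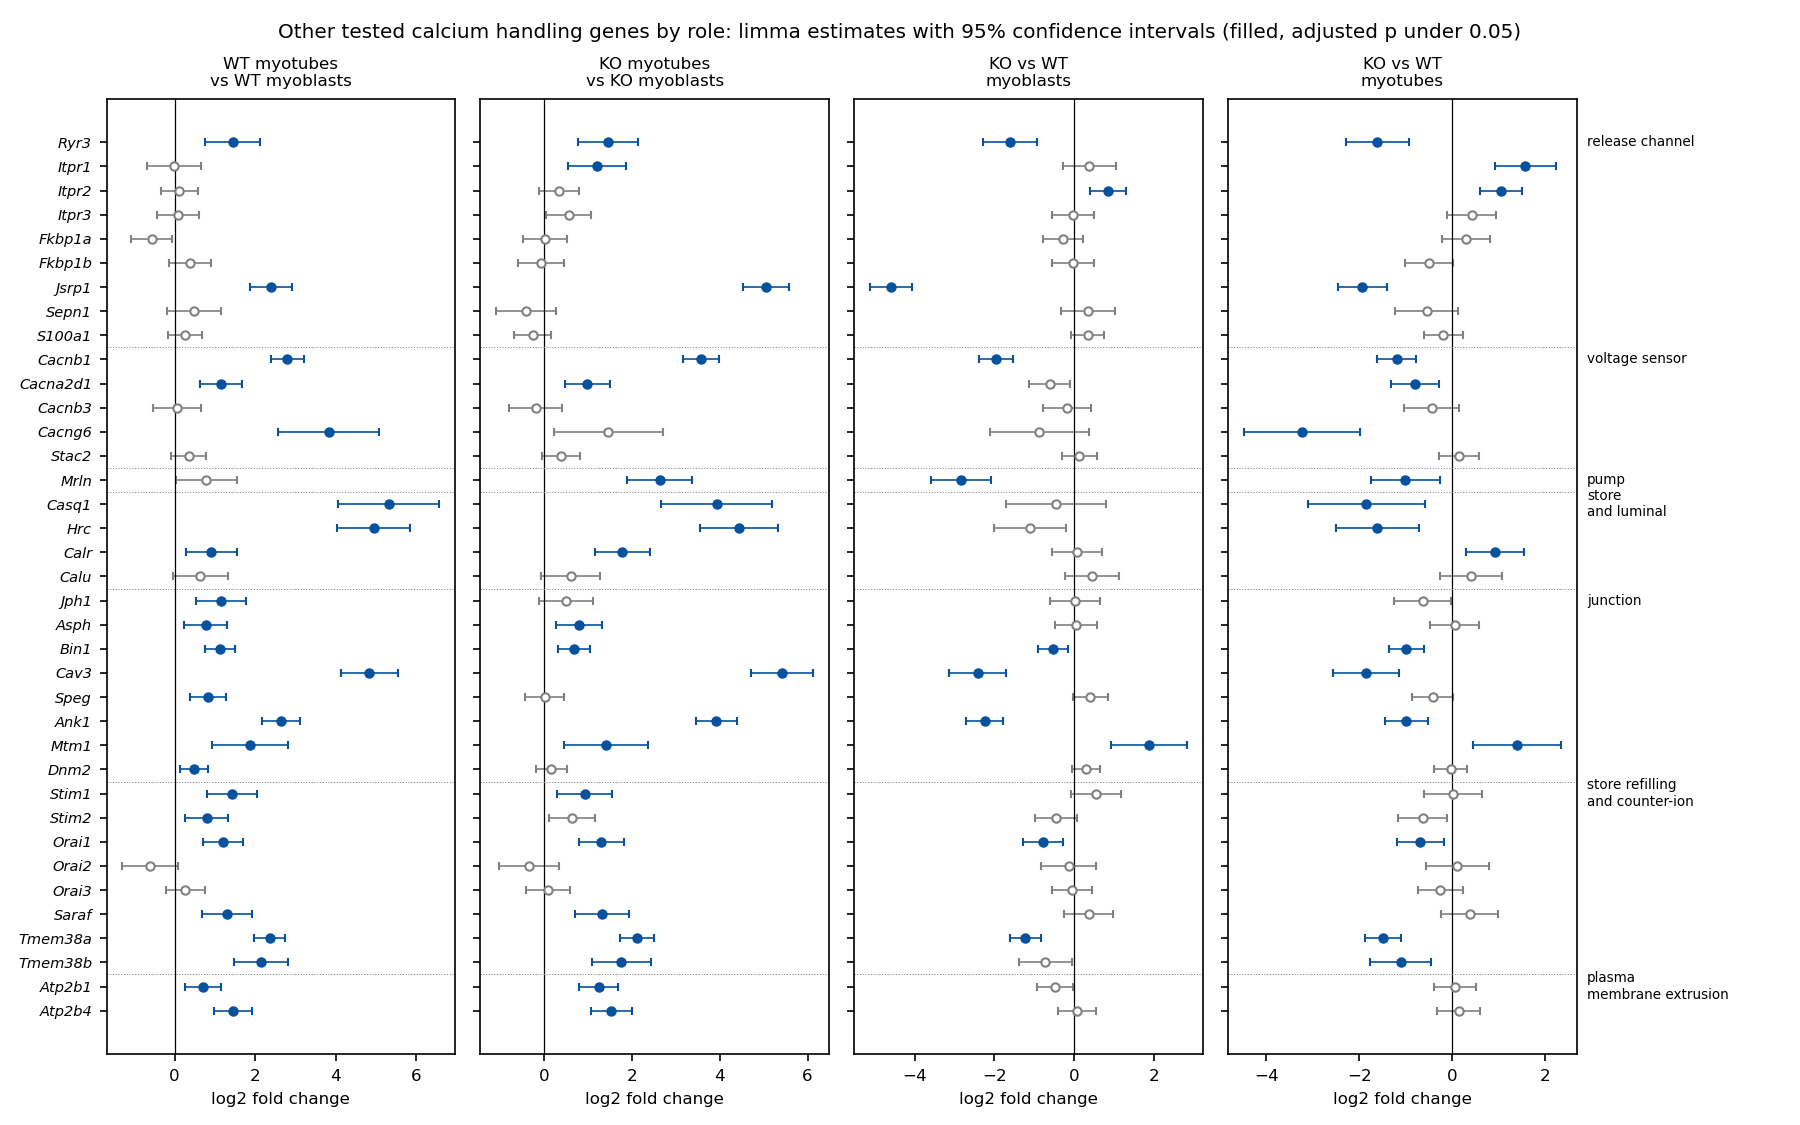
Log2 fold changes (horizontal axis) of the 37 tested partner genes, grouped by role, from limma with 95% confidence intervals in the 4 comparisons of groups; filled points passed an adjusted p of 0.05. All filled points lie above 0 in the differentiation panels, and in the myotube panel 14 lie below and 4, Itpr1, Itpr2, Calr and Mtm1, above 0. Cacng6, below 0 in the myotube panel, passed the filter only through the WT myotubes, and Mtm1 only through the KO myotubes.

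The 10 genes varied together across the samples. Over the 45 pairs, Pearson's r of the log2 values across the 16 samples had a median of 0.928 and ranged from 0.456 to 0.990, with 36 pairs at 0.8 or more. All pairs under 0.8 held Jph2, and without it the lowest r was 0.870. These values describe the differences between the 4 groups, because when each sample was taken relative to the mean of its group the median r was 0.269, with a range of -0.554 to 0.652. The tested genes most like each member across the 16 samples were, by Pearson's r, Mybph and Myh3 for Atp2a1 (r of 0.998 and 0.994), Tnni2 and Ckm for Cacng1 (0.992 and 0.991), Myl4 and Mybph for Casq2 (0.992 and 0.991), Srpk3 and Cdkn1a for Srl (0.995 and 0.991), Dhrs7c and Tmem38a for Cacna1s (0.991 and 0.983), Myl6b and Cox8b for Ryr1 (0.987 and 0.986) and Hfe2 and Myl6b for Stac3 (0.989 and 0.979). For Trdn they were Itgb1bp2 and Camk2a (0.979 and 0.966) and for Atp2a2 Ncam1 and Nav2 (0.978 and 0.954). Jph2 was closest to Vasp and Ucp2 (0.961 and 0.951), and 12 tested genes reached an r of 0.9 with it, against 121 to 197 for each of the other members.

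**Figure D5:**
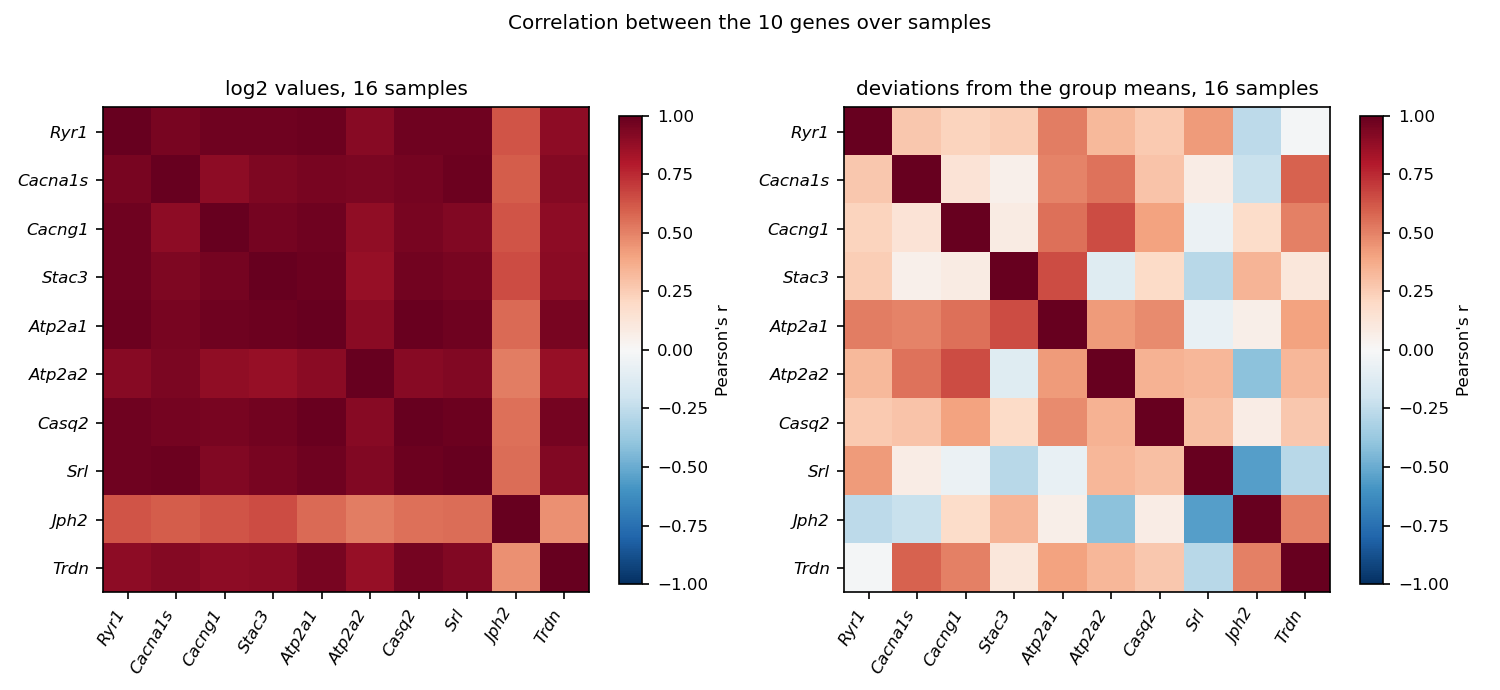
Pearson's r between each pair of the 10 genes over the 16 samples (colour scale from -1 to 1), for the log2 values on the left and for their deviations from the group means on the right. On the left all pairs without Jph2 are at 0.870 or more, and on the right the values spread from -0.554 to 0.652.

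How the reads were assigned limits some of these values. The sources do not say whether strand was used in counting, and exons of 4 members overlap exons of genes on the opposite strand in the GENCODE annotation of GRCm38: Atp2a1 shares 763 bases with Rabep2, Cacna1s 1309 with Gm37759, Ryr1 864 with Gm26604 and 50 with Gm44408, and Atp2a2 83 with Gm43361. Rabep2 averaged 48.3 to 54.4 normalized counts in the 4 groups. In the last 500 bases of the transcripts, cut into stretches of 31 bases, the 10 genes shared no stretch with another gene, except Ryr1, which shared 1.06% with Ryr2, a gene with at most 3 reads in a sample.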

How the data were processed

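Total RNA of 16 C2C12 samples was sequenced as single-end reads by a digital mRNA sequencing service. According to the methods, the authors trimmed the reads, removed ribosomal and phiX reads, used STAR for alignment and HTSeq for the count per gene, and the submitters' processing notes list STAR 2.6.0a, HTSeq, bcl2fastq and mm10; the strand setting and the normalization tool are not given in the sources used here. The deposited unit is log2: gene counts had been divided by a factor of the sample by the authors and raised by 1 before the log2 step. Undoing the log gave whole multiples of 1 step per sample (tolerance 0.01), so that reads per gene were recovered for depth, floors and counting intervals (exact binomial, 95%). The sample factors equalled median-ratio factors, so that alternative changed nothing.

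The test, run on the genes that reached 10 normalized counts in 4 or more samples, was limma 3.58.1 under R 4.3.3 (4 group means, no covariates, eBayes with a trend, all 16 samples) with a Benjamini-Hochberg adjusted p under 0.05 taken as a call, after the procedure was tested on simulated data. Within-sample ratios of 3 gene pairs were compared by two-sided exact permutation tests (SciPy 1.17.1). Groups came from the sample titles, while a genotype field lists every sample as unknown. The samples are labelled as biological replicates, and no source names separate cultures. Alternatives were pseudocounts of 0.5 and 5, no filter, a minimum of 50, total and median-ratio scaling, quantile normalization, a replicate block, the compared samples alone, sample weights, each sample left out, and, chosen after seeing the data, all libraries except the shallow replicates 2 and 4 of the KO myotubes. The 10 genes, the partner and marker lists and the tests were chosen with earlier results of these data known. All 10 genes were named in every comparison, with at most 4 called partners per comparison and role, members of a role that a sentence counts, and the 2 tested genes of highest correlation with each. A gene first listed among the partners is not reported here. The 74 table entries without a symbol were not used as named genes. Sepn1, Tmem8c, Gm7325 and Gm34302, the table's names for Selenon, Mymk, Mymx and Strit1, were matched by gene ID.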

Additional observations from a re-analysis of the deposited data

Results flagged for a closer look

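In 51 sets of 4 values (10 genes and 3 ratios), 8 had a sample far from the other 3 by Dixon's test at the 95% level, where chance flags about 1 in 20 sets. On the log2 scale, KO myoblast replicate 4 stood above the others for Ryr1 (0.88, others 0), Stac3 (1.42, others 0) and Atp2a1 (1.42, others 0.87 to 0.91), which are differences of 1 or 2 reads. KO myoblast replicate 2 stood above the others for Casq2 (2.11, others 1.42 to 1.46, 4 reads against 2) and below them for the ratio of Casq2 to Casq1 (-0.47, others 1.42 to 1.46). KO myotube replicate 2, which had 1790524 reads, was high for Cacng1 (8.23, others 8.07 to 8.08) and for Jph2 (8.61, others 7.15 to 7.27), and WT myoblast replicate 2 was low for Jph2 (7.84, others 8.63 to 8.71).

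The change with differentiation differed between the lines for Atp2a1 (by 2.98 on the log2 scale, and by 1.53 at a pseudocount of 5), Cacng1 (2.07) and Casq2 (1.69) in the interaction term of limma, each with the larger change in KO cells. The Casq2 call was lost at a pseudocount of 5 (0.71, limma adjusted p = 0.293) and in the other settings named above. All 9 myotube markers were called higher in this term too.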

How the results depend on the processing

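Of 1340 values of the 10 genes under alternative settings, 1299 kept their direction and their side of the threshold, 15 lost a call, 14 gained one and 12 changed sign, each of the last without a call. Jph2 in KO differentiation became -0.13 with sample weights, -0.16 in the deeper libraries, that is without KO myotube replicates 2 and 4, and -0.16 to 0.33 with each sample left out, lowest without KO myotube replicate 2. Trdn between the myotubes became 0.085 with sample weights, 0.084 in the deeper libraries and -0.25 to 0.19 with each sample left out, above 0 without WT myotube replicate 1 or 3 or KO myotube replicate 4. In the interaction, Ryr1 became -0.16 at a pseudocount of 5, and Atp2a2 0.11 in the deeper libraries and -0.41 to 0.078 with each sample left out, above 0 without WT myoblast replicate 4 or KO myoblast replicate 3. The cause was not tested.

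Calls over all genes rose with sample weights to 4683 (WT differentiation, 2474 otherwise), 3773 (between myoblasts, 1697) and 1221 (interaction, 371), and with the compared samples alone went to 2656 between myoblasts and 1565 between myotubes (2521). With sample weights 17 partner genes were called between myoblasts and 5 of the 10 genes in the interaction, where the deeper libraries called 1 partner gene. Each sample left out in turn gave 1564 to 2949 calls in WT differentiation, lowest without WT myotube replicate 1, and 231 to 521 in the interaction, lowest without KO myoblast replicate 1. It gave 12 to 18 partner genes between myotubes, lowest without WT myotube replicate 3 or 4, and 1 to 4 in the interaction, where it was 1 without WT myoblast replicate 2 or 3, WT myotube replicate 2 or 4, or replicate 3 or 4 of either KO group. At a pseudocount of 5 the ratio of Atp2a1 to Atp2a2 differed by 4.61 in KO differentiation and -2.30 between myoblasts, and that of Casq2 to Casq1 by 0.37 in WT differentiation. Quantile normalization called 49.7% of the WT differentiation calls higher, against 60.1%.

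Samples with the same replicate number did not deviate together: over 24 pairs r averaged 0.033 (-0.223 to 0.369), against -0.0108 for other numbers, and 7 of 16 samples correlated best with their own number. With the replicate block, Jph2 in WT differentiation lost its call (adjusted p = 0.0506) and Atp2a2 between myoblasts gained one (adjusted p = 0.0341), while no other call of the 10 genes changed. With no filter Jph2 lost its call too (adjusted p = 0.054). Depth limits Ryr1, Cacna1s, Stac3, Atp2a1 and Casq2 in KO myoblasts, which held at most 4 reads of each per library.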
